A study of Mus musculus with 16 samples.

Results

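Mmp2, Pdgfrb and 8 other genes of the matrix-facing cell surface were followed in sorted mouse blood progenitors. The 10 genes are Mmp2, Mmp14, Timp1, Timp2, Sdc1, Sdc2, Sdc4, Pdgfra, Pdgfrb and Dpp4, which are 10 of the 23420 rows of each of 2 deposited tables of the authors' results. The genes were chosen by symbol with their means, log2 fold changes, standard errors (SE) and status in these tables in view, so these values are given as a description and none was tested again. Multipotent progenitors (MPP, Lin-cKit+Sca1+CD48+CD150-) and granulocyte-monocyte progenitors (GMP, Lin-cKit+Sca1-CD150-CD16/32+) were sorted from Kit-enriched bone marrow at 40 weeks of age. In each population 4 libraries labelled Tet2KO (genotype Tet2-/-) were set against 4 labelled WT (genotype Tet2fl/fl), each from an individual mouse, and 3 mice per genotype gave both populations. The WT mice thus carry floxed Tet2 alleles, and what drove the deletion is not named in the sources used here.

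Matrix metalloproteinases are zinc proteases that cut collagens and other matrix proteins. MMP2, gelatinase A, is secreted as a proenzyme, and membrane-bound MMP14 activates it at the cell surface with TIMP2 as a bridge, while TIMP proteins at higher levels inhibit the same proteases. Syndecans are membrane proteoglycans whose heparan sulfate chains hold growth factors and matrix proteins. PDGFRA and PDGFRB are class III receptor tyrosine kinases for platelet-derived growth factors, best known from stromal and perivascular cells. DPP4, also called CD26, is a surface peptidase that trims chemokines such as CXCL12, which keeps blood progenitors in the marrow.

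The deposited tables of the authors give 1 mean per gene over the 8 libraries of a population and 1 fold change, with no value per library, so the spread between mice enters only through the SE. A gene was called when the authors' adjusted p was below 0.05. In bulk samples, more cells of a type and more RNA per cell cannot be told apart. Levels of genes that define the sorted populations differed between the authors' deposited tables. Mpo, a primary granule gene of GMP, had a mean of 23699 in MPP and 200049 in GMP, and the stem and progenitor factor gene Hlf had 5621 in MPP and 887 in GMP. Both genes were marked as outliers in MPP, so single libraries may set their means there. Outlier marks were frequent among markers of some lineages in both tables. In MPP 5 of 8 markers of GMP, 5 of 10 of dendritic cells and 4 of 10 of macrophages had the mark. So did 5 of 6 of erythroid cells and 3 of 7 of mast cells and basophils, beside 3.50% of all genes above the mean filter. In GMP 4 of 6 erythroid and 3 of 7 mast cell and basophil markers had it, beside 2.66%. The marker counts also include genes below the mean filter, so they and these shares do not have the same base. Which libraries caused the marks cannot be read from the tables, so no value could be given without them. Tet2 itself was higher in the libraries labelled Tet2KO, by a log2 fold change of 0.44 (SE 0.0992) in MPP and 0.35 (SE 0.0748) in GMP in the authors' deposited tables. A value for the whole gene cannot show the loss of an exon, so it does not check the labels, and directions are given by the label Tet2KO.

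Of the 10 genes, 8 passed the authors' filters in MPP (a mean of at least 10 and no outlier mark) and 6 in GMP. In MPP the authors' deposited table called 4 of the 8, all higher in Tet2KO (Mmp2, Sdc2, Pdgfrb and Dpp4), where 0.346% of all 11859 tested genes were called higher. In GMP the authors' deposited table called 3 of the 6, again all higher (Mmp2, Pdgfrb and Dpp4), where 1.75% of 11503 tested genes were called higher. The genes were listed with these calls known, so the shares are set side by side without being read further. None was called lower in either population, against 0.27% of all tested genes called lower in MPP and 2.22% in GMP. The median log2 fold change of the tested genes of the list was 0.67 in MPP and 0.50 in GMP, beside -0.00 and 0.00 for all tested genes. Of 11050 genes that both tables tested, 8 were called higher in both, and Mmp2, Pdgfrb and Dpp4 are 3 of these.

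Stricter and looser calls gave the following counts of higher genes of the list. With an added absolute log2 fold change of 1 or more, 2 were called in MPP and 1 in GMP, where 0.101% and 0.269% of all tested genes were called higher. With an empirical null, which widens the spread of unchanged genes to that seen over all genes, 2 were called in MPP and 3 in GMP, where 0.101% and 0.313% of all were. At an adjusted p below 0.01, 3 were called in MPP and 3 in GMP (0.169% and 0.739% of all). At an adjusted p below 0.1 (0.464% and 2.99% of all), after recentring on the median (0.354% and 1.73%) or with a mean of 50 or more (0.348% and 1.89%), 4 were called in MPP and 3 in GMP.

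**Figure D1:**
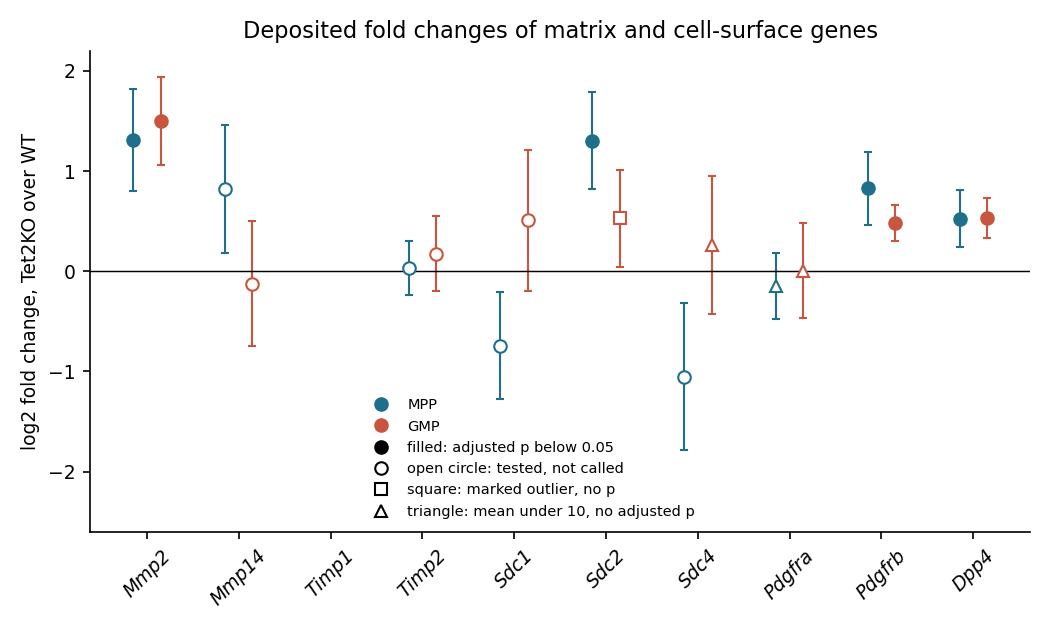
Log2 fold change of Tet2KO over WT for each gene in MPP (blue) and GMP (red), with bars for the 95% interval; filled symbols were called, squares were marked as outliers and triangles had a mean under 10. Timp1 has no value. Mmp2, Pdgfrb and Dpp4 are filled above 0 in both populations, and Sdc1 and Sdc4 lie below 0 in MPP and above 0 in GMP without a call.

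TET2 oxidizes 5-methylcytosine, which in mammals sits mostly at CpG sites, so promoter sequences are shown with their CpGs. Dpp4, the called gene with an entry in the RefSeq promoter table (GRCm38.p6), Lpcat2, the gene that follows Mmp2 on the chromosome, and Mmp14, the activator of MMP2, are given as the 250 bases before the start site, 5′ to 3′ on the strand of the gene, with each CpG in capitals. Dpp4 is chr2:62412232-62412481 on the minus strand, Lpcat2 chr8:92855083-92855332 on the plus strand and Mmp14 chr14:54431348-54431597 on the plus strand.
Dpp4: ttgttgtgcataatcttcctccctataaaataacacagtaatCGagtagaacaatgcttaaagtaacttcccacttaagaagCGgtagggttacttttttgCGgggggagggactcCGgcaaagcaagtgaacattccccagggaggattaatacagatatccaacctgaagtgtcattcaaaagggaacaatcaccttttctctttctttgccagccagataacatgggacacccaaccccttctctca
Lpcat2: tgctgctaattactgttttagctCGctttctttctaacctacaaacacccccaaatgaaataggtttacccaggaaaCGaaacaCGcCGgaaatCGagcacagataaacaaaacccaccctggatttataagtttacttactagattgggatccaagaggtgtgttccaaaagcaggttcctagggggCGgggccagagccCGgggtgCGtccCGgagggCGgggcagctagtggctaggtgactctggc
Mmp14: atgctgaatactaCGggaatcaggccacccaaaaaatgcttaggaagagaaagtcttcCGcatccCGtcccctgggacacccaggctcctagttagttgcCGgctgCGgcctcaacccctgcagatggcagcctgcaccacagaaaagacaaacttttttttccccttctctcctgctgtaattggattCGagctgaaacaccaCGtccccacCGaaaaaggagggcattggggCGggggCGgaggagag

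Dpp4 had 4 CpGs in this window and a ratio of observed to expected CpG of 0.34, near the median of 0.374 over 32841 windows. Lpcat2 and Mmp14 had 10 each, with ratios of 0.61 and 0.53. Windows were found for 7 of the 10 genes, and Mmp2, Sdc2 and Pdgfrb are not among them. The bases just after the start site were compared with GENCODE transcripts of the same gene. They matched for Lpcat2 and the genes with a window, except Mmp14 and Pdgfra. The start sites, and so the windows, of Mmp14 and Pdgfra are less certain, though their GENCODE genes begin shortly past the windows, at 54431612 and 75152292. Start sites are also less certain for Timp2 and Sdc4. Their windows (118355412 to 118355661 and 164443189 to 164443438) lie inside the GENCODE spans of the genes. The window of Sdc1 (8771146 to 8771395) overlaps the GENCODE span, which begins at 8771323. The E-box CACGTG, searched on both strands, was in none of the 7 windows and is in 6.02% of all windows. The AP-1 motif TGANTCA was in none and is in 6.75% of all windows. The RUNX motif TGTGGT, in 14.0% of all windows, was found once, 114 bases before the start site of Mmp14. The GC box GGGCGG, in 32.7% of all windows, was in the windows of Mmp14, Timp1, Timp2, Sdc1 and Sdc4, and not in those of Dpp4 and Pdgfra. These are matches of letters in a short window, with no measure of binding or methylation.

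Mmp2 (chromosome 8, 92827291 to 92853420, plus strand, mm10) had the largest fold changes of the list in both populations. Its log2 fold change was 1.31 in MPP (SE 0.258, 2.48-fold, DESeq2 adjusted p = 0.000363) and 1.50 in GMP (SE 0.225, 2.82-fold, DESeq2 adjusted p = 3.24e-08) in the authors' deposited tables. In each table it held place 8 from the top among all tested genes by fold change. Of 9102 genes tested in both tables with a mean of at least 50 in each, Mmp2 was the only gene with a log2 fold change of at least 1 in both. The GMP value exceeded the MPP value by 0.19, with an SE of 0.342 if the errors of both tables are taken as independent, so the difference is smaller than its error.

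The level of Mmp2 was modest. Its mean normalized signal in the authors' deposited tables was 133 in MPP and 67.3 in GMP, which is 39.4 and 20.0 per kb of exon. Per kb, 36.5% of tested genes in MPP and 22.2% in GMP lay at or below it. As a share of the summed means of each table it was 2.31 times higher in MPP than in GMP, where the median of the genes tested in both was 1.11. The tables were normalized separately, so ratios of levels between populations are descriptive.

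The partners of MMP2 activation were not called in either population. Mmp14, the membrane-bound activator (chromosome 14, 54431612 to 54445364, plus strand), had a log2 fold change of 0.82 in MPP (SE 0.326) and -0.13 in GMP (SE 0.317), in the authors' deposited tables. With such SEs a call would have needed about 1.18 in MPP and 0.98 in GMP, so a change of moderate size was not detectable at this precision. The 95% interval of Mmp14 was 0.18 to 1.46 in MPP and -0.75 to 0.50 in GMP. Its difference, GMP minus MPP, was -0.94 (SE 0.455) with errors taken as independent, and it was not tested. The mean of Mmp14 was 42.5 in MPP and 35.1 in GMP, which per kb is 7.13 and 5.88 and so below Mmp2 in both. Timp2, inhibitor and bridging partner (chromosome 11, 118301069 to 118355740, minus strand), was the more abundant transcript per kb, at 79.9 in MPP and 40.8 in GMP. Its log2 fold change was 0.03 in MPP, with a 95% interval of -0.24 to 0.31, and 0.17 in GMP, with an interval of -0.20 to 0.55, in the authors' deposited tables. Mmp2 thus had the larger fold change and Timp2 the higher level.

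Timp1, the other soluble inhibitor (chromosome X, 20870166 to 20874735, plus strand), was listed at a mean of 0 in both tables and has no fold change. It lies wholly inside the span of Syn1, a gene on the opposite strand of chromosome X, and shares 0 of its 888 exon bases with Syn1 exons in the GENCODE annotation. Syn1 had a mean of 19.8 in MPP and 13.9 in GMP in the authors' deposited tables. A mean of 0 in both tables was found for 8.90% of 20342 protein-coding genes. How reads within nested genes were assigned is not given in the sources used here, so the 0 of Timp1 is uncertain.

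The syndecans had values on both sides of 0. Sdc2 (chromosome 15, 32920723 to 33034935, plus strand) was called in MPP with a log2 fold change of 1.30 (SE 0.246, 2.46-fold, DESeq2 adjusted p = 0.000188) in the authors' deposited table, next to Mmp2 in size. In GMP it was marked as an outlier, a status that 2.66% of the genes above the mean filter had there, and carries no p-value. Its GMP value was 0.53 (SE 0.247) in the authors' deposited table, and which library set the mark cannot be read from the tables. Sdc2 was also the syndecan with the higher level in GMP, at a mean of 123 in MPP and 228 in GMP, a share of the summed means 1.59 times higher in GMP. With the outlier mark, single libraries may set its mean in GMP, so the direction of this ratio is uncertain.

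Sdc1, known as the plasma cell antigen CD138 (chromosome 12, 8771323 to 8793715, plus strand), and Sdc4 (chromosome 2, 164424247 to 164443887, minus strand) had negative values in MPP. Sdc1 stood at -0.74 (SE 0.271, adjusted p = 0.250) and Sdc4 at -1.05 (SE 0.376, adjusted p = 0.230) in the MPP table of the authors' deposited DESeq2 results, and neither was called. In GMP Sdc1 had 0.51 (SE 0.359) and Sdc4 had 0.26 (SE 0.350) in the authors' deposited table, the latter at a mean of 3.99 and so below the filter. Sdc1 and Sdc4 thus lay on opposite sides of 0 in the 2 populations. The differences, GMP minus MPP, were 1.25 (SE 0.450) for Sdc1, 1.31 (SE 0.514) for Sdc4 and -0.77 (SE 0.349) for Sdc2, with errors taken as independent, and they were not tested because the same values chose the genes. Levels of Sdc1 and Sdc4 were low, at means of 40.0 and 32.6 in MPP and 15.3 and 3.99 in GMP. The share of Sdc4 was 9.55 times higher in MPP than in GMP, a ratio that 99.9% of the genes tested in both lay at or below.

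**Figure D2:**
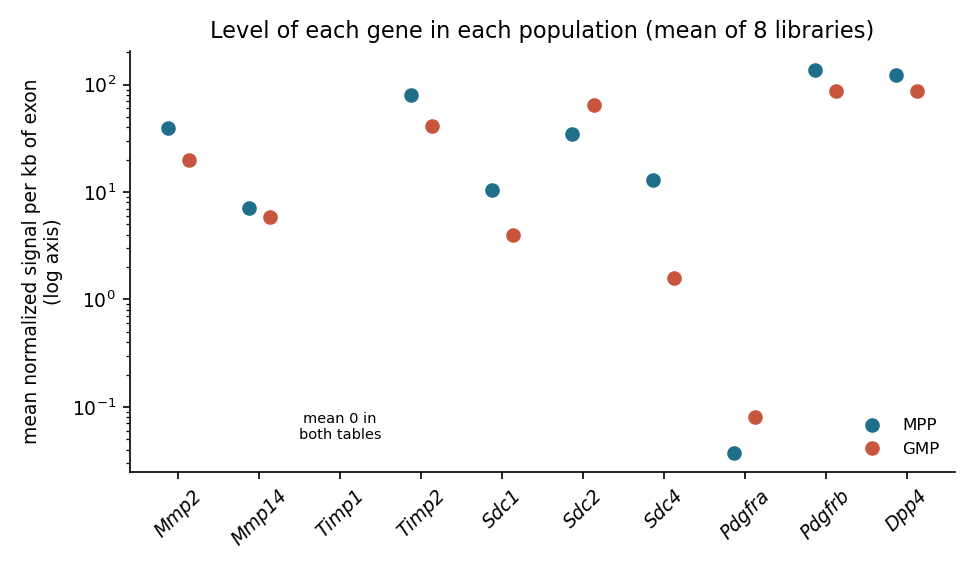
Mean normalized signal per kb of exon (log axis) of each gene in MPP (blue) and GMP (red), each point a mean over 8 libraries, with no spread between libraries in the tables. Pdgfrb and Dpp4 are the highest in both populations, Sdc2 and the very low Pdgfra are higher in GMP, and Timp1 is listed at 0. Sdc2 was marked as an outlier in GMP, so single libraries may set its mean there.

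Of the PDGF receptors, Pdgfrb was well detected in both populations and Pdgfra (chromosome 5, 75152292 to 75198215, plus strand) was close to 0. Pdgfrb had a mean of 751 in MPP and 482 in GMP, and Pdgfra of 0.375 and 0.806, in the authors' deposited tables. Per kb of exon this is 137 and 87.9 for Pdgfrb against 0.0375 and 0.0804 for Pdgfra. Pdgfrb (chromosome 18, 61045150 to 61085061, plus strand, mm10) had a log2 fold change of 0.83 in MPP (SE 0.186, 1.77-fold, DESeq2 adjusted p = 0.00450) and 0.48 in GMP (SE 0.0909, 1.40-fold, DESeq2 adjusted p = 3.41e-05) in the authors' deposited tables. The difference, GMP minus MPP, was -0.34 (SE 0.207), and it was not tested. With the empirical null the call in MPP was lost and that in GMP kept. Pdgfra was below the mean filter in both tables.

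Dpp4 (chromosome 2, 62330073 to 62412231, minus strand) had nearly the same value in both populations. Its log2 fold change was 0.52 in MPP (SE 0.144, 1.44-fold) and 0.53 in GMP (SE 0.101, 1.45-fold) in the authors' deposited tables, a difference of 0.01 (SE 0.176). Its means were 773 in MPP and 554 in GMP, and per kb it stood at 122 and 87.7, close to Pdgfrb in both populations. The antisense gene Gm13561 shares 232 of the 6319 exon bases of Dpp4 in GENCODE, and the sources used here do not say whether reads were counted by strand. The call in MPP is the weakest of the table. Its DESeq2 adjusted p of 0.0499 placed it last of 73 called genes, and the next gene stood at 0.0509. The DESeq2 adjusted p in GMP was 3.44e-05. In MPP the call was lost at an adjusted p of 0.01 and with the empirical null.

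By level per kb the order in MPP was Pdgfrb, Dpp4, Timp2, Mmp2, Sdc2, Sdc4, Sdc1, Mmp14 and Pdgfra. In GMP it was Pdgfrb and Dpp4 at nearly the same value, then Sdc2 (marked as an outlier), Timp2, Mmp2, Mmp14, Sdc1, Sdc4 and Pdgfra. Without values per library it could not be said which neighbours in these orders differ beyond their spread.

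**Figure D3:**
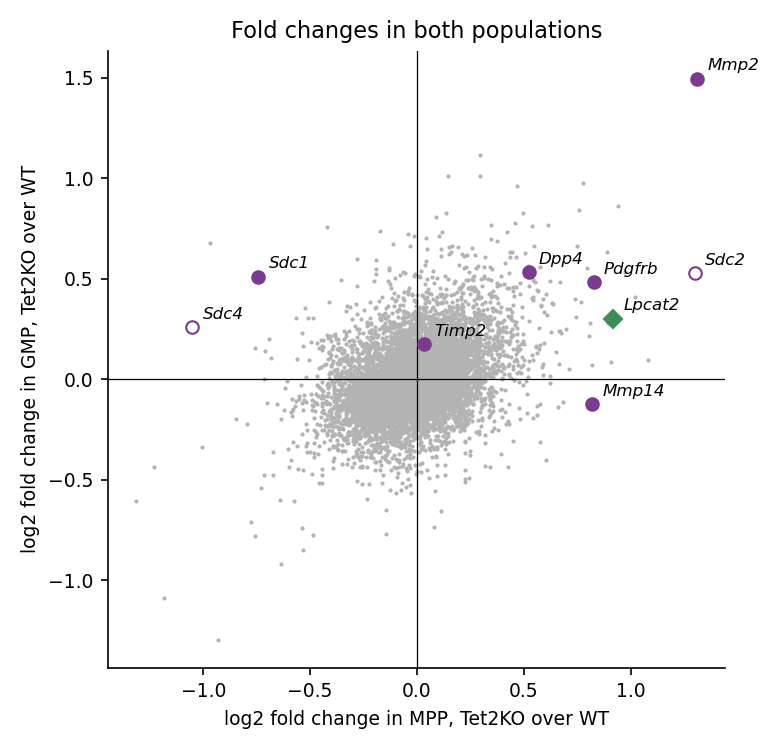
Log2 fold change of Tet2KO over WT in MPP (horizontal) and GMP (vertical) for 9102 genes tested in both tables with a mean of at least 50 in each (grey), the genes of the list with a mean of at least 10 in MPP (purple, open where 1 table gives no test) and Lpcat2, the neighbour of Mmp2 (green). Mmp2 lies alone in the upper right corner at 1.31 and 1.50, while Dpp4 and Pdgfrb lie at the rim of the cloud.

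Few genes had a pair of fold changes like that of Mmp2. Over the 2 populations and the same 9102 genes, the nearest by Euclidean distance were Met, a receptor tyrosine kinase, at 0.73, Rgs7bp at 0.75 and Slc6a15 at 0.85 log2 units. Met had log2 fold changes of 0.94 in MPP and 0.86 in GMP in the authors' deposited tables. The nearest to Pdgfrb were Bzrap1, the endothelial and stem cell receptor gene Tie1 and Ttn, at distances of 0.081, 0.11 and 0.12. The nearest to Dpp4 were Ltbp3, H2-Q5 and Arhgef28, at 0.016, 0.016 and 0.032. Likeness over only 2 values per gene is a weak description.

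Position on the chromosome was not used to choose the genes. The 3 nearest genes on each side of the 10 genes made 60 neighbours. In MPP 34 of them were tested and 2 were called, 5.88% beside 0.616% of all tested genes. In GMP 35 were tested and 3 were called, 8.57% beside 3.96% of all tested genes. The counts are too small for more than a description.

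Lpcat2, a lysophospholipid acyltransferase that can make platelet-activating factor, begins 1919 bases past the end of Mmp2 on the same strand. In MPP it rose by 0.92 on the log2 scale (SE 0.167, DESeq2 adjusted p = 8.64e-05) in the authors' deposited table. In GMP the authors' deposited table gave 0.30 (SE 0.106, DESeq2 adjusted p = 0.0782), without a call. The levels of both genes ran in opposite directions between populations. Lpcat2 had a mean of 193 in MPP and 402 in GMP, a share of the summed means 1.78 times higher in GMP, whereas Mmp2 was lower there. On the other side of Mmp2 the nearest gene, Irx6, lies 146.3 kb away and had means of 0 in MPP and 0.123 in GMP.

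Csf1r, the receptor for macrophage colony-stimulating factor and a class III relative of Pdgfrb, begins 15537 bases past the end of Pdgfrb on the same strand. In GMP it rose by 0.56 (SE 0.111, DESeq2 adjusted p = 9.29e-05) in the authors' deposited table, beside 0.48 for Pdgfrb. In MPP it was marked as an outlier with a value of 0.34 (SE 0.362) in the authors' deposited table. Its share of the summed means was 2.67 times higher in GMP, the opposite of Pdgfrb, though single libraries may set its mean in MPP. Cdx1, the nearest gene on the other side, had means of 0.395 and 0.575.

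Among the neighbours of Sdc2, Mmp14 and Dpp4 the called genes were lower. Cpq, a carboxypeptidase gene that begins 48.2 kb past the end of Sdc2, fell by 0.54 in MPP (SE 0.137, DESeq2 adjusted p = 0.0198) in the authors' deposited table, where Sdc2 was higher. In GMP Lrp10, beside Mmp14, fell by 0.31 (SE 0.0792), where Mmp14 itself had -0.13 without a call, and the proteasome gene Psmd14, 530 kb from Dpp4, fell by 0.41 (SE 0.101) in the authors' deposited table. The peptidase gene Fap, a close relative of Dpp4 that lies 88.7 kb from it, had means of 9.73 and 3.85 and was below the filter in both tables.

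**Figure D4:**
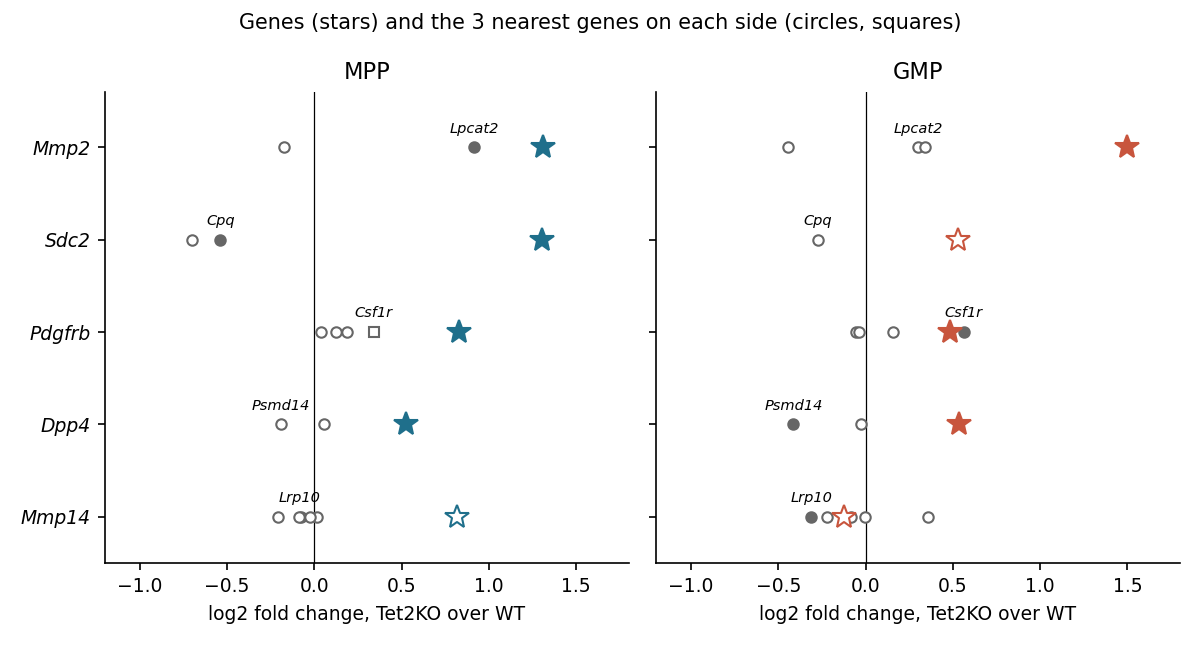
Log2 fold change of Tet2KO over WT in MPP (left) and GMP (right) for 5 genes (stars) and those of their 3 nearest genes on each side that passed the mean filter (circles, squares where marked as outliers); filled symbols were called. Lpcat2 lies to the right with Mmp2 in MPP, Csf1r beside Pdgfrb in GMP, and Cpq to the left of 0 in the row of Sdc2.

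Of 207 further genes in 12 lists of related pathways 105 were tested in MPP, and none was called by the authors' DESeq2 fit. At an unadjusted p below 0.05 the number was 16 of 105, where 9.72% of all tested genes passed that mark. In GMP 7 of 103 were called, 5 higher and 2 lower, 6.80% beside 3.96% of all tested genes. At an unadjusted p below 0.05 there were 23 of 103 in GMP, where 16.4% of all tested genes passed that mark. The 7 genes are spread over 6 lists.

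Among other proteases of the matrix, 1 of 3 tested matrix metalloproteinases was called in GMP. This was Mmp8, the neutrophil collagenase, which rose by 1.36 (SE 0.252, DESeq2 adjusted p = 2.21e-05) at a mean of 54.1 in the authors' deposited table. In MPP 6 were tested with no call and a median of 0.23, and Mmp8 was marked as an outlier there with -0.14. Of the ADAM and ADAMTS proteases, which shed surface proteins or cut matrix, none of 11 in MPP or 10 in GMP was called. Of the inhibitors and activators none of 7 was called in either population. Timp3, the matrix-bound inhibitor, had 0.81 in GMP (SE 0.302) and -0.08 in MPP in the authors' deposited tables.

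Among genes of proteoglycans and of heparan sulfate, the chain that syndecans carry, 1 of 9 further proteoglycans was called higher and 1 lower in GMP. Gpc3, a glypican, rose by 0.63 (SE 0.193, DESeq2 adjusted p = 0.0327), and Srgn, the granule proteoglycan serglycin, fell by 0.31 (SE 0.0815, DESeq2 adjusted p = 0.00796), both in the authors' deposited table. In MPP Gpc3 had 0.89 (SE 0.363) without a call in the authors' deposited table. Of 19 tested enzymes that build or edit the chain, Sulf2, an extracellular sulfatase, was called in GMP, where it rose by 0.99 in the authors' deposited table (SE 0.282, DESeq2 adjusted p = 0.0187). The other enzymes had no call, and the median of the list was -0.07 in MPP, with 17 tested, and -0.05 in GMP. Of the proteins that bind syndecan tails, Ezr, the membrane-to-actin linker ezrin, fell by 0.29 in GMP in the authors' deposited table (SE 0.0617, DESeq2 adjusted p = 0.000390), and it was the called gene of 7 tested there. None of 9 was called in MPP.

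For the PDGF pathway, the ligands were scarce. All 4 ligand genes were below the mean filter in GMP, and in MPP Pdgfd alone passed it, with a mean of 12.9 and a log2 fold change of 0.01 in the authors' deposited table. Of 20 tested signalling adaptors none was called in either population, with medians of -0.02 in MPP and 0.02 in GMP. Of 3 related receptors tested in GMP 1 was called, namely Csf1r, which rose by 0.56 as given above. Kit had 0.08 in MPP and 0.01 in GMP, and Flt3 had 0.26 in GMP (SE 0.109), both without a call in the authors' deposited tables. In MPP Kit alone was tested, since 2 of the 3 were marked as outliers.

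Of the DPP4 family, none of 5 tested genes was called in either population, and medians were -0.04 in MPP and -0.03 in GMP. Of substrates and partners of DPP4 none of 6 was called in either. Cxcr4, the receptor for CXCL12, had -0.12 in MPP (SE 0.157) and 0.09 in GMP (SE 0.107) in the authors' deposited tables. Of 12 matrix components tested in MPP none was called. Of 14 in GMP Ltbp3, which binds latent TGF-beta in the matrix, rose by 0.52 in the authors' deposited table (SE 0.119, DESeq2 adjusted p = 0.00116), and its MPP value of 0.54 (SE 0.175) was not called.

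**Figure D5:**
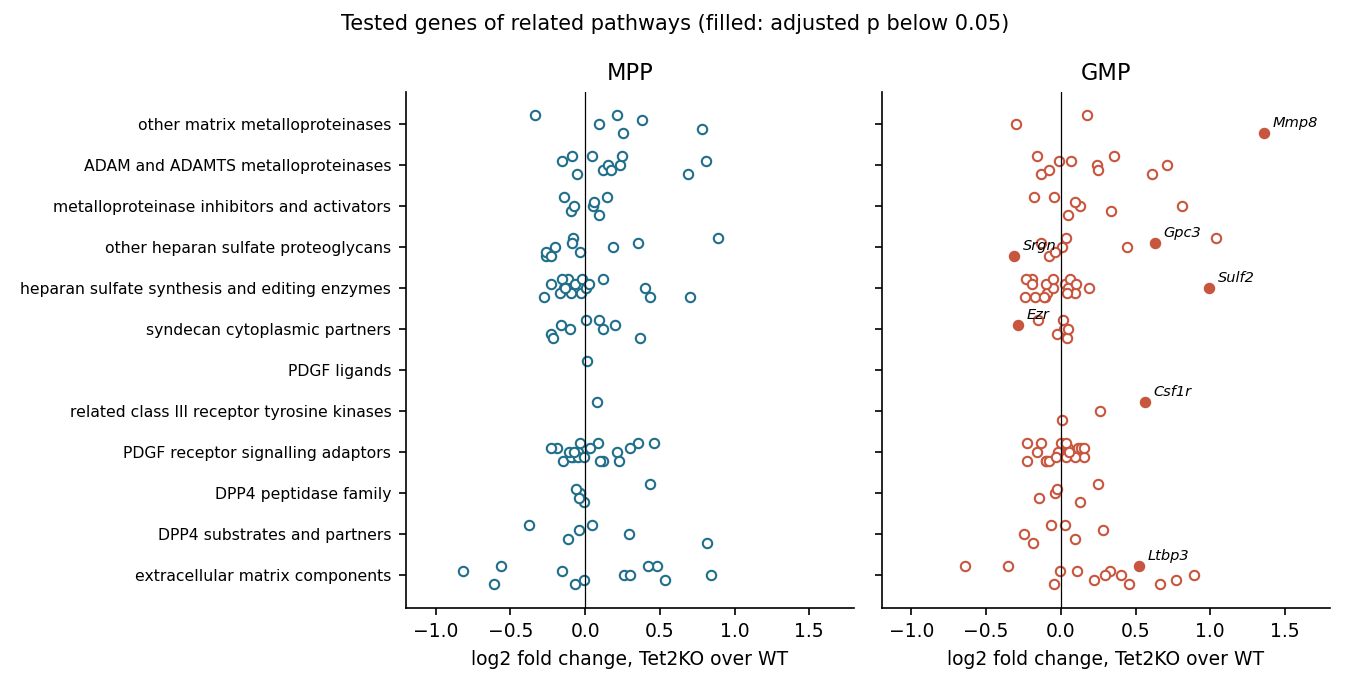
Log2 fold change of Tet2KO over WT of each tested gene in 12 lists of related pathways in MPP (left) and GMP (right); filled points were called. No point is filled in MPP, and the 7 filled points in GMP lie on both sides of 0.

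Pdgfrb and Mmp2 are also markers of other marrow cells, so marker lists of these cells are set beside them. The 13 marker lists also include those of blood progenitors, MPP and GMP, the sorted cells themselves. Over all 13 marker lists 3 of 43 tested genes were called in MPP, 6.98% beside 0.616% of all. In GMP 9 of 52 were called, 17.3% beside 3.96% of all. The lists were drawn up with earlier results of these data known, so these shares are not read as a result about other cell types. Of 14 mesenchymal stromal markers 12 were below the mean filter in MPP and 13 in GMP. Their summed mean was 215 in MPP and 37.4 in GMP, most of it from Bgn, and Cxcl12, Lepr and Col1a1 had means of 4.34, 3.12 and 0.265 in MPP, against 751 for Pdgfrb. Pdpn was at 0 in MPP and Dcn and Lum in GMP. Of 8 pericyte and smooth muscle markers none was called, and their summed mean was 177 in MPP and 131 in GMP, with Rgs5 and Des at 0 in MPP. All 5 tested members had values above 0 in MPP (median 0.39), and in GMP 1 of 3 did. Summed means by genotype cannot be had from the tables.

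Of 10 endothelial markers 4 were tested in MPP, 2 with values above 0 and 2 below, with a median of -0.03 and a lowest value of -0.61. Tie1 alone was called there, where it rose by 0.77 (SE 0.190, DESeq2 adjusted p = 0.0138). In GMP 5 were tested, 2 above 0 and 3 below, and none was called. Cdh5, which defines that lineage, had means of 3.04 and 1.10 in the authors' deposited tables. Of 9 megakaryocyte markers 5 were tested in GMP, 4 with values above 0 and 1 below, with a median of 0.11 and a lowest value of -0.34. Of these Pf4 rose by 1.35 and Vwf by 1.01 with a call in the authors' deposited table. With the empirical null 1 marker of the list was called in GMP, and with a mean of 50 or more also 1. The megakaryocyte list is not described in MPP here. Of 9 plasma cell markers, 7 are in the tables, 3 were tested in MPP and 2 in GMP, and none was called. Of the macrophage markers Cd68 rose by 0.34 and Vcam1 fell by 1.24 in GMP, with no call in MPP, and of the mast cell and basophil markers Cma1 fell by 1.71 in GMP in the authors' deposited tables. Few dendritic cell, T and NK cell and erythroid markers were tested, namely 1, 3 and 0 in MPP and 4, 2 and 1 in GMP. None of them was called by the authors' DESeq2 fit, and so few tested genes cannot show that these cell types did not change. Of 7 blood progenitor markers tested in MPP, 6 above 0 and 1 below, Runx1 was called and rose by 0.47. In GMP 7 were tested, 2 above 0 and 5 below, without a call. Of 6 markers of MPP tested in GMP, 3 lay above 0 and 3 below (median -0.02, highest 0.42), and Mecom and Hoxa9 fell by 0.85 and 0.60 with a call. Of 7 markers of GMP tested in GMP, 2 lay above 0 and 5 below, and Ctsg and Ms4a3 fell by 0.31 and 0.40 with a call in the authors' deposited tables. In MPP 4 and 2 of these lists were tested and none was called. The part of other cell types in the changes of Mmp2, Pdgfrb, Sdc2 and Dpp4 was not tested.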

How the data were processed

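Per the labels' protocols, 2 ng of RNA was amplified for each library and sequenced in 75 bp single-end reads. Per the submitters' processing notes, the tools were STAR and DESeq2 and the build mm10. The sources used here give neither the read counter nor its annotation. The mean column is a normalized signal over all libraries of a population, as deposited by the authors. Fold changes (log2, Tet2KO over WT) and their SE, a score on the log2 scale, are the authors' own, per the file headers. The p-value and adjusted p-value are those deposited by the authors. The p-value was checked to be the two-sided normal p of fold change over SE, and the adjusted value the Benjamini-Hochberg value over genes with the status OK, whose mean is at least 10. The largest SE was 0.388 in MPP and 0.359 in GMP, as fold changes shrunken towards 0 give, so weakly expressed genes may have changed more than printed. Library depth is unknown.

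The genes and the 25 gene lists (12 of pathways, 13 of markers) were chosen with earlier results of these data known. Named are the 10 genes, up to 3 called genes per pathway list, called markers and the 2 of highest mean where informative, called neighbours, both immediate neighbours of Mmp2 and Pdgfrb, and 3 genes of nearest fold changes. Further uncalled members of lists were chosen after their values were seen. Levels per kb use the summed exon length of GENCODE M21, which 98.3% of 23393 symbols matched. A call that an SE would need is the smallest called statistic of the table times that SE. The code of the alternative calls was run on simulated normal values with the deposited SEs. Fold changes over SE had a robust spread of 1.15 in MPP and 1.35 in GMP, and the simulation held no such widening. It is thus a check of the code and not of how the calls behave on these data. Software was matplotlib 3.10.9, scipy 1.17.1, pandas 2.3.3 and numpy 2.4.6 in Python 3.11.15. The result of 1 marker gene is not reported here.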

Additional observations from a re-analysis of the deposited data

How the results depend on the processing

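The called genes of the list numbered 4 in MPP and 3 in GMP. They numbered 2 in MPP when the log2 fold change also had to reach 1 in size and 2 with an empirical null (Mmp2 and Sdc2 in both cases), and 1 in GMP (Mmp2) with that fold change. Other thresholds, recentring on the median and a minimum mean of 50 gave 3 or 4 in MPP and 3 in GMP. Mmp2 kept its call under all 6 alternatives in both populations. The pathway and marker lists held 3 called genes in MPP and 16 in GMP, beside 0.616% and 3.96% of all tested genes. In MPP these were 0 of 105 tested pathway genes and 3 of 43 tested markers, and in GMP 7 of 103 and 9 of 52. Of the same tested genes 0 and 5 were called when the log2 fold change also had to reach 1 in size (0.219% and 0.391% of all). With the empirical null 1 and 5 were called (0.152% and 0.626% of all). Called neighbours numbered 2 of 34 tested in MPP and 3 of 35 in GMP with 3 genes per side. With 1 per side they were 2 of 12 and 2 of 13, and with 5 per side 2 of 56 and 5 of 56. Of all tested genes 0.616% were called in MPP and 3.96% in GMP. A larger count with 5 per side comes by construction from more genes. No direction reversed. Leaving out a library could not be tried, since the tables hold no values per library. No paired analysis was possible because the tables hold no values per library, and WT and Tet2KO share no replicate numbers.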
